A study of Mus musculus with 43 samples.

Results

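The genes described here are 9 members of the acute phase response and of the Serpina3 family, Serpina3n, Serpina3c, Hp, Hpx, Lcn2, Orm1, Saa1, Saa2 and Saa3, in 4 tissues of aged mice with and without dietary restriction. They were chosen by gene symbol, with their values in these samples known, and each matched 1 of the 42349 entries of the deposited table of gene expression. Because the choice rested on these values, the differences of the 9 genes are given as a description, with a standard error (SE) and without a test.

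RNA of 4 tissues of female mice was sequenced at 15 months of age: liver, brain, skeletal muscle and the inguinal depot of white adipose tissue (WAT). Wild type (WT; Irs1+/+) and IRS1 knockout (KO; Irs1-/-) mice either fed ad libitum (AL) or received 30% dietary restriction (DR), which was introduced stepwise from 10 weeks of age and had run for 12 months, so that the groups were WT_AL, WT_DR, KO_AL and KO_DR. The knockout is described as global, so it is not limited to a tissue or to adult life, and restriction was begun in young adults. The labels list 43 libraries, 2 per WT_AL group and 3 per other group, except that WT_DR in WAT has 2.

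The deposited table holds 1 pooled value per gene and group, in FPKM (fragments mapped per kilobase of transcript, scaled to the mapped total), with a 95% interval. No value per library was used, so no spread between mice could be computed, depth is unknown, and the median standard deviation that the intervals give ranged from 27.2% to 62.3% of the FPKM value across the 16 groups. Between 12989 and 15181 entries per group reached an FPKM of 1. Irs1, the targeted gene, went against the labels: its FPKM was 5.95 in the liver group labelled KO_AL against 4.70 in WT_AL, 6.31 against 5.72 in muscle, 3.49 against 2.47 in brain and 5.37 against 2.47 in WAT. Under DR the groups labelled KO lay above WT_DR in liver, muscle and brain, and in WAT the order was 2.58 in KO_DR and 6.56 in WT_DR. The labels do not say which part of Irs1 the deletion removes, so groups are named here by their labels and each direction of genotype rests on them.

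The acute phase response is the change in plasma proteins that follows infection, injury or other inflammation. Cytokines such as interleukins act on hepatocytes through STAT, NF-kB and C/EBP transcription factors, glucocorticoids add to the response, and the liver then secretes serum amyloid A, haptoglobin, hemopexin and orosomucoid while it makes less albumin and transthyretin. Several of these genes are also used outside the liver, for example haptoglobin, orosomucoid and serum amyloid A3 in fat cells, lipocalin 2 in neutrophils and epithelia, and Serpina3n in reactive astrocytes.

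The 9 genes are protein coding, and the table uses the GRCm38 build. Serpina3n lies at chr12:104406729-104414329 on the plus strand and Serpina3c at chr12:104146382-104153870 on the minus strand, in the same serpin cluster. The 3 serum amyloid genes lie within 1 cluster, Saa3 at chr7:46711998-46715676, Saa1 at chr7:46740501-46742980 and Saa2 at chr7:46751833-46754314, and Hpx lies on the same chromosome at chr7:105591613-105600116. Hp lies at chr8:109575130-109579172, Orm1 at chr4:63344560-63348163 and Lcn2 at chr2:32384633-32388252.

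Promoter windows of RefSeq (GRCm38.p6), cut here to the 250 bases before the start of each gene, were matched for 7 of the 9 genes, all but Hp and Orm1. The windows of the 2 gene pairs whose members are near copies of each other are printed, because the members of each pair are compared below. They are Serpina3n (chr12:104406458-104406707, plus strand) and Serpina3c (chr12:104153873-104154122, minus strand), then Saa1 (chr7:46742981-46743230, minus strand) and Saa2 (chr7:46751583-46751832, plus strand), each 5′ to 3′ on the strand of its gene. Capitals mark matches to GGNNTTTCC (NF-kB) and TTNNGNAAT (C/EBP), read on both strands, and they do not overlap each other.

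Serpina3n: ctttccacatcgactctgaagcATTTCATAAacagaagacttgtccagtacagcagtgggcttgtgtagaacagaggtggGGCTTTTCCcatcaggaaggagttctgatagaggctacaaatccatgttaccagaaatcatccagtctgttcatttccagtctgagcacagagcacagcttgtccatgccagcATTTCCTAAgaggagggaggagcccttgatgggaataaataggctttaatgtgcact
Serpina3c: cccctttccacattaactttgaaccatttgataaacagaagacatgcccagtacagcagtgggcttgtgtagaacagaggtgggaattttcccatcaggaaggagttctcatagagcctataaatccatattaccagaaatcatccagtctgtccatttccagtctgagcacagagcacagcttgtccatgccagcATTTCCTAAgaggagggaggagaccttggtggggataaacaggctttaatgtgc
Saa1: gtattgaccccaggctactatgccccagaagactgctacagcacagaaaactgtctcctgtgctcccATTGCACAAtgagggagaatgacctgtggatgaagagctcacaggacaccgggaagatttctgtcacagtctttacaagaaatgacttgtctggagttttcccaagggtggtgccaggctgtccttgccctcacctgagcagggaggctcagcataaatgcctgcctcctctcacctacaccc
Saa2: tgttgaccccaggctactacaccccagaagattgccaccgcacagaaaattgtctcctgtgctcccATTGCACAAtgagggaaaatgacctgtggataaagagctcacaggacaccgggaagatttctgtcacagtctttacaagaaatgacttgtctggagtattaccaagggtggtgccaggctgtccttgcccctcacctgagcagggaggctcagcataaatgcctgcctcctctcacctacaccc

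The C/EBP letters were present in 4 of the 7 windows, those of Serpina3n, Serpina3c, Saa1 and Saa2, and in 10.2% of all 32851 windows of the same length. The NF-kB letters were present in the Serpina3n and Saa3 windows and in 4.93% of all windows. The letters ACANNNTGT, the core of a glucocorticoid receptor motif, were present in Lcn2 and at nearly the same place in Serpina3n and Serpina3c, from -76 to -68 and from -73 to -65 with the start base counted as 0, and in 5.84% of all windows. TTCNNNGAA (STAT) was in 0 of the 7 windows and in 7.02% of all windows, and TATAAA was in the Serpina3c window and in 12.4% of all. These matches describe the letters and no binding was measured. Over the aligned bases the windows of Serpina3n and Serpina3c were 92.7% identical, and those of Saa1 and Saa2 95.6% identical.

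Reads from near copies can be split between genes by the counting. Of the 54-base stretches of the Saa1 transcript, 11.9% were also in Saa2 and 0.899% in Saa3, while 19.3% of those of Orm1 were in Orm2 and 0.845% of those of Serpina3n were in Serpina3c. The values of Saa1, Saa2 and Orm1 are therefore the less certain ones as single genes.

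All 9 genes had their highest level in a group of liver or WAT, and some spanned wide ranges between the groups of 1 tissue. Hpx, which binds free haem in plasma, was between 1435 and 3412 FPKM in the liver groups and at most 77.3 in any other group, and its lowest liver value was 79.7-fold its highest WAT value. Hp, which binds free haemoglobin, was between 2381 and 5015 FPKM in liver, between 168 and 585 in WAT, between 22.4 and 65.8 in muscle and at most 1.13 in brain. Orm1, a plasma lipocalin that carries drugs and lipids, was between 287 and 528.5 FPKM in liver and between 85.0 and 138 in WAT.

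Serpina3c had the opposite order from most of the 9 genes. Its FPKM was between 27.7 and 66.4 in WAT, between 1.66 and 7.47 in muscle, between 0.917 and 2.05 in liver and at most 0.156 in brain, and its lowest WAT value was 13.5-fold its highest liver value. Serpina3n was high in both liver, between 199.5 and 315 FPKM, and WAT, between 125 and 316, so that the ranges of these tissues overlapped. It was the only one of the 9 genes above 2 FPKM in any brain group, at 8.66 to 18.8. The ratio of Serpina3n to Serpina3c was 142 to 218 in the liver groups, 3.86 to 4.76 in WAT and 0.846 to 2.38 in muscle. Saa3 was at similar FPKM in liver, 18.8 to 36.6, and WAT, 8.18 to 34.5, whereas Saa1 was between 80.2 and 137.5 in liver and at most 3.01 in WAT.

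**Figure D1:**
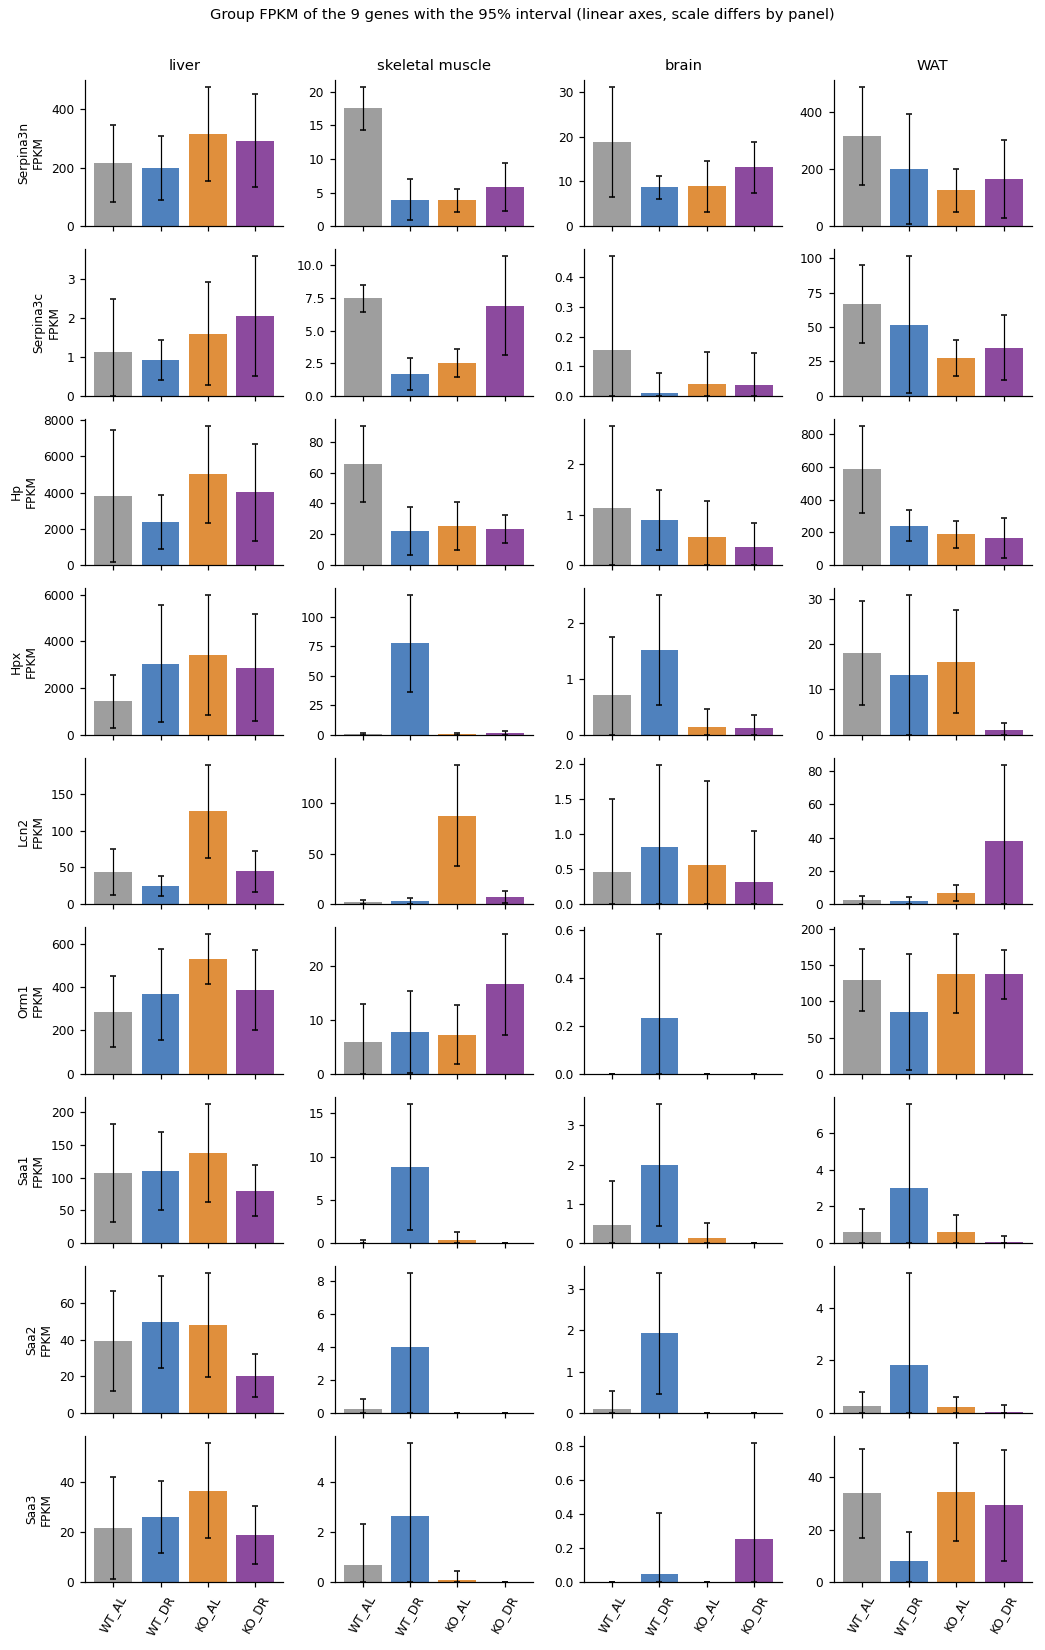
Bars give the pooled FPKM of each of the 9 genes (rows) in WT_AL, WT_DR, KO_AL and KO_DR of each tissue (columns), with the authors' 95% interval as error bars, on linear axes from 0 whose scale differs by panel. Muscle holds single tall groups, WT_DR for Hpx at 77.3 and KO_AL for Lcn2 at 87.5, while the 4 liver groups of each gene lie closer together.

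Of the protease inhibitors, Serpina3n encodes a secreted inhibitor of serine proteases such as granzyme B and cathepsin G. In skeletal muscle its FPKM was 17.5 in WT_AL (95% interval 14.3 to 20.8), 3.95 in WT_DR (0.941 to 6.96), 3.85 in the group labelled KO_AL (2.18 to 5.53) and 5.84 in KO_DR (2.28 to 9.40). WT_AL stood apart, since its interval overlapped none of the other 3. The log2 difference from WT_AL was -2.15 ± 0.57 (SE) in WT_DR and -2.19 ± 0.34 in KO_AL, a level 4.44-fold and 4.55-fold lower. Between KO_DR and KO_AL the difference was 0.60 ± 0.54, and between KO_DR and WT_DR 0.56 ± 0.70.

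Serpina3n was again highest in WT_AL and lowest in KO_AL in WAT, at 316 FPKM in WT_AL, 199.7 in WT_DR, 125 in KO_AL and 166 in KO_DR, but there all 4 intervals overlapped. The log2 difference between KO_AL and WT_AL in WAT was -1.34 ± 0.59. Brain again had its highest Serpina3n value in WT_AL, with 18.8 FPKM against 8.66 in WT_DR, 8.90 in KO_AL and 13.1 in KO_DR, and overlapping intervals throughout. Gfap, the filament protein of astrocytes, was at 187 FPKM in WT_AL brain, 73.6 in WT_DR, 169 in KO_AL and 166 in KO_DR, and the sum of 11 reactive astrocyte markers was 257, 120.2, 248.5 and 242 in the same order. Gfap and Vim made most of that sum, the median of the 11 markers was 1.11, 0.913, 1.88 and 1.33 FPKM, and their part in the brain values was not tested. In liver the 2 groups labelled KO had the higher Serpina3n values, 315 in KO_AL and 292 in KO_DR against 215 in WT_AL and 199.5 in WT_DR, with overlapping intervals.

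Serpina3c is a mouse relative of Serpina3n, also a secreted serpin, that is made in fat. Its FPKM in muscle was 7.47 in WT_AL (6.46 to 8.47), 1.66 in WT_DR (0.432 to 2.89), 2.52 in KO_AL (1.43 to 3.61) and 6.91 in KO_DR (3.09 to 10.7). Unlike Serpina3n, it was close to the WT_AL level in KO_DR. The log2 difference was -2.17 ± 0.54 between WT_DR and WT_AL, -1.57 ± 0.33 between KO_AL and WT_AL, 2.06 ± 0.67 between KO_DR and WT_DR and 1.46 ± 0.51 between KO_DR and KO_AL. The genotype difference under DR therefore exceeded that under AL by 3.62 ± 0.74 on the log2 scale, against 2.75 ± 0.78 for Serpina3n. In WAT Serpina3c was 66.4, 51.7, 27.7 and 34.9 FPKM in WT_AL, WT_DR, KO_AL and KO_DR, and the log2 difference between KO_AL and WT_AL was -1.26 ± 0.46, close to that of Serpina3n.

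Markers of fat cells also differed between the muscle groups. Adipoq, the fat cell hormone adiponectin, was 321 FPKM in WT_AL muscle, 62.9 in WT_DR, 198 in KO_AL and 326 in KO_DR, and Lep, the hormone leptin, was 78.7, 4.03, 9.24 and 12.4. The median of the 10 adipocyte markers was 134, 31.8, 108 and 162 FPKM in the same order, and none was at 0. Between KO_AL and WT_AL, 6 of the 10 were higher and 4, among them Adipoq and Lep, were lower. The median of these log2 differences was 0.44. Serpina3n and Serpina3c were, in WT_AL muscle, at 5.55% and 11.2% of their level in WT_AL WAT, and the median of the adipocyte markers was at 7.47%. In WT_DR muscle they were at 1.98% and 3.21% of the WT_DR WAT level and the marker median at 2.49%, in KO_AL at 3.09% and 9.09% with the marker median at 14.2%, and in KO_DR at 3.53% and 19.8% with the marker median at 11.1%. In bulk tissue fewer cells of a type and less RNA per cell cannot be told apart, and the part of fat cells in the muscle values was not tested.

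Of the scavengers, Hp in muscle followed Serpina3n. It was 65.8 FPKM in WT_AL (41.2 to 90.3), 22.4 in WT_DR (6.85 to 38.0), 25.4 in KO_AL (9.80 to 41.0) and 23.4 in KO_DR (14.1 to 32.6). The WT_AL interval overlapped none of the others, the log2 differences from WT_AL were -1.55 ± 0.57 in WT_DR and -1.37 ± 0.52 in KO_AL, and the other 3 groups lay within 0.12 of each other on the log2 scale in the pairs that were compared. In WAT, Hp was 585 FPKM in WT_AL (319 to 850), 241 in WT_DR (147 to 335), 188 in KO_AL (106 to 270) and 168 in KO_DR (46.7 to 289). WT_AL was again the highest, 2.43-fold above WT_DR and 3.11-fold above KO_AL, with log2 differences of -1.28 ± 0.43 and -1.64 ± 0.45. Its interval lay clear of KO_AL and KO_DR and met that of WT_DR.

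In liver the order of Hp was another one, with 5015 FPKM in KO_AL, 4010 in KO_DR, 3830 in WT_AL and 2381 in WT_DR, and intervals as wide as 204 to 7456 in WT_AL. Macrophage markers, like Hp, were highest in WT_AL of WAT, where the sum of 10 of them was 1270 FPKM in WT_AL, 475 in WT_DR, 656 in KO_AL and 620 in KO_DR, with none at 0. The order of the other groups differed, since WT_DR was lowest by the marker sum but above both groups labelled KO for Hp. The 10 adipocyte markers summed to 36856, 49403, 23630 and 29171 FPKM in the same order, and their median was 1996, 1349, 1264 and 1691, so that WT_DR was the highest group by the sum and below WT_AL by the median. The part of macrophages and of fat cells in the WAT values was not tested.

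Hpx stood out in the muscle of 1 group. Its FPKM was 0.569 in WT_AL (0 to 1.77), 77.3 in WT_DR (36.5 to 118), 0.812 in KO_AL (0 to 1.91) and 1.84 in KO_DR (0.185 to 3.49). WT_DR was 136-fold above WT_AL and 42.1-fold above KO_DR, with log2 differences of 7.09 ± 1.57 and -5.40 ± 0.75, and its interval overlapped none of the others. In the same group Alb, the main plasma protein of hepatocytes, was 987 FPKM, against 5.52 in WT_AL, 13.6 in KO_AL and 23.3 in KO_DR. The sum of the 12 hepatocyte markers was 2774 FPKM in WT_DR muscle and 53.2, 147.5 and 265 in WT_AL, KO_AL and KO_DR, and 9 of the 12 markers were higher in WT_DR than in WT_AL by a Wald test across all entries, which called 1.4% of entries. The ratio of Hpx to Alb was 0.0783 in WT_DR muscle, 0.0595 to 0.103 in the other muscle groups and 0.0539 to 0.1 in the liver groups. Liver RNA in the WT_DR muscle libraries and expression in muscle cannot be told apart from group values.

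**Figure D2:**
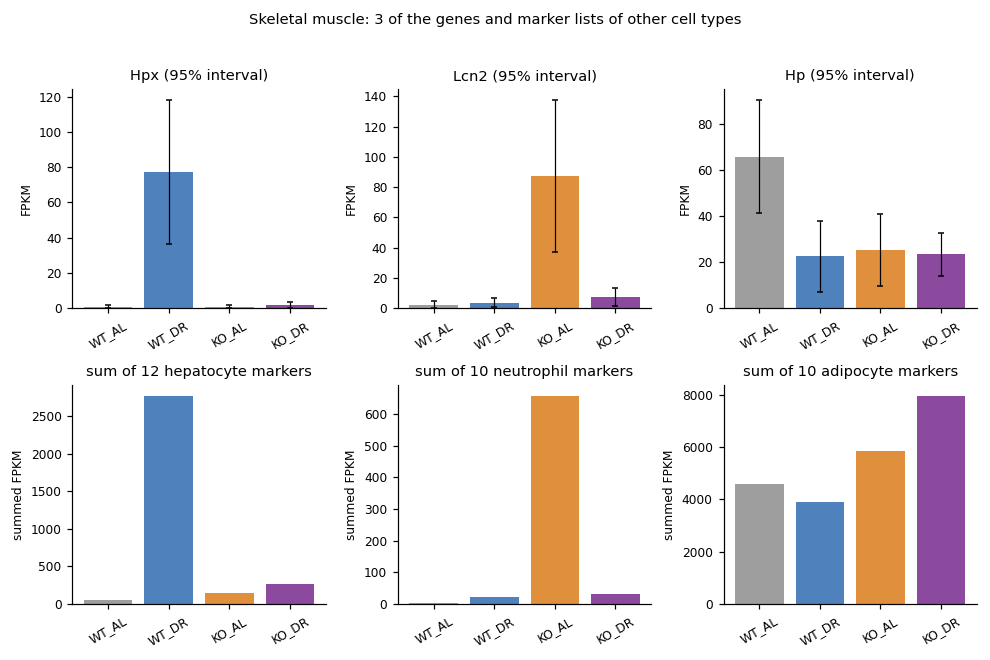
The upper bars give the FPKM of Hpx, Lcn2 and Hp in the 4 skeletal muscle groups with the 95% interval, and the lower bars the summed FPKM of 12 hepatocyte, 10 neutrophil and 10 adipocyte markers in the same groups, all on linear axes from 0. Hpx and the hepatocyte sum (2774) are both tallest in WT_DR and Lcn2 and the neutrophil sum (658) in KO_AL, while Hp is tallest in WT_AL and the adipocyte sum, of which Car3, a gene muscle also uses, makes 2716 to 5126, in KO_DR.

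WT_DR muscle allowed the 9 genes to be set against the liver markers one by one. The 12 hepatocyte markers were there at 0.996% to 3.05% of their level in WT_DR liver, with a median of 1.72%, against a median of 0.0328% in the WT_AL groups. Hpx was at 2.54%, Orm1 at 2.1% and Serpina3n at 1.98%, all within that range, and Hp was just under it at 0.941%. Saa1 at 7.97%, Saa2 at 8.02%, Saa3 at 10.2% and Lcn2 at 14.4% lay above the range, and Serpina3c at 181% lay far above it. Orm1 and Serpina3n, unlike Hpx, had similar or higher values in muscle groups with lower hepatocyte markers. Orm1 was 5.87 FPKM in WT_AL muscle against 7.68 in WT_DR. Serpina3n was 17.5 in WT_AL and 3.85 in KO_AL against 3.95 in WT_DR. At the marker median of 1.72%, the liver level of Saa1 would correspond to 1.90 FPKM in muscle, where 8.79 was measured with an interval of 1.51 to 16.1. That of Hpx would correspond to 52.4, where 77.3 was measured with an interval of 36.5 to 118. Both computed values are inside the measured intervals, as are those of Serpina3n, Orm1, Saa2 and Saa3. The computed values of the other 3 genes are outside: Hp at 40.96 is above its interval of 6.85 to 38.0, while Lcn2 at 0.437 and Serpina3c at 0.0158 are below theirs of 0.627 to 6.68 and 0.432 to 2.89. The computed values rest on the marker median alone and carry no error. The markers themselves span 0.996% to 3.05%, and the interval of Hp in WT_DR liver was 872 to 3891 FPKM. A place inside or outside an interval is therefore no test, and the source of these values was not tested.

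**Figure D3:**
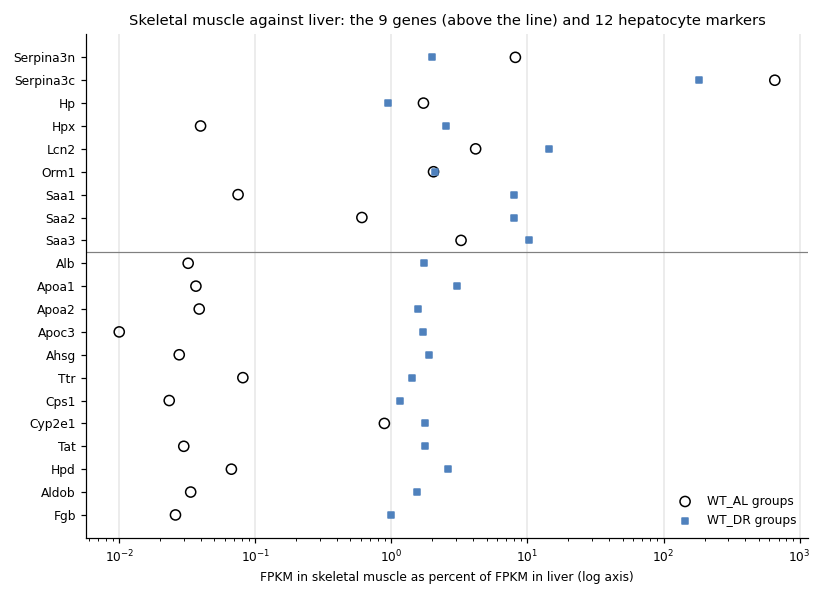
Each point is the FPKM of a gene in skeletal muscle as a percent of its FPKM in liver on a log axis, for the WT_AL groups (open circles) and the WT_DR groups (filled squares), with the 9 genes above the line and 12 hepatocyte markers under it. In WT_DR the markers lie between 0.996% and 3.05%, Hpx, Orm1 and Serpina3n lie among them, and Saa1, Saa2, Saa3, Lcn2 and Serpina3c lie to their right.

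Hpx also changed place in WAT, at 18.0 FPKM in WT_AL (6.63 to 29.4), 13.2 in WT_DR (0 to 30.8), 16.1 in KO_AL (4.79 to 27.5) and 1.10 in KO_DR (0 to 2.58). KO_DR was the low group, 14.7-fold below KO_AL with a log2 difference of -3.88 ± 1.10, and its interval lay clear of WT_AL and KO_AL. Hepatocyte markers other than Cyp2e1 were lowest in the same group: Alb was 204, 192 and 203 FPKM in WT_AL, WT_DR and KO_AL and 28.5 in KO_DR, and the median of the 12 markers was 41.4, 20.5, 43.1 and 5.60. Cyp2e1 went the other way, at 865, 1246, 1083 and 1471 FPKM, and made most of the sum of the 12 markers. That sum was 1638, 1655, 1833 and 1599 FPKM. The ratio of Hpx to Alb was 0.0885, 0.0687, 0.0795 and 0.0385 in the 4 WAT groups. The part of liver RNA in the WAT values was not tested. In liver itself Hpx was 1435 FPKM in WT_AL, 3049 in WT_DR, 3412 in KO_AL and 2878 in KO_DR, with overlapping intervals and a log2 difference of 1.25 ± 0.79 between KO_AL and WT_AL.

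Of the lipocalins, Lcn2 binds bacterial siderophores and so withholds iron. It was highest in the groups labelled KO_AL of liver and muscle. Muscle had 1.83 FPKM in WT_AL (0 to 4.63), 3.65 in WT_DR (0.627 to 6.68), 87.5 in KO_AL (37.3 to 138) and 7.35 in KO_DR (1.43 to 13.3). KO_AL was 47.7-fold above WT_AL and 11.9-fold above KO_DR, with log2 differences of 5.58 ± 1.17 and -3.57 ± 0.71, and its interval overlapped none of the others. Genes of neutrophil granules stood out in the same group: S100a9 was 364 FPKM in KO_AL muscle and at most 17.3 in the other 3 groups, Ngp was 42.1 and at most 1.53, and Camp, the cathelicidin gene, was 57.8 and at most 1.00. The 10 neutrophil markers summed to 658 FPKM in KO_AL muscle and to 4.68, 23.1 and 31.0 in WT_AL, WT_DR and KO_DR, where 2, 2 and 0 of them were at 0. Their part in the Lcn2 value was not tested.

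Liver Lcn2 was 44.2 FPKM in WT_AL (12.9 to 75.5), 25.4 in WT_DR (11.7 to 39.1), 126 in KO_AL (63.2 to 189.5) and 45.1 in KO_DR (17.3 to 72.9). KO_AL was 2.86-fold above WT_AL and 2.80-fold above KO_DR, with log2 differences of 1.52 ± 0.63 and -1.49 ± 0.57, and its interval lay clear of WT_DR alone. The neutrophil markers of liver summed to 22.3, 15.4, 89.5 and 34.8 FPKM in the same order, and the ratio of Lcn2 to S100a9 was 2.15 to 3.74 in the liver groups against 0.24 to 0.586 in the muscle groups. In WAT Lcn2 was 2.38 in WT_AL, 1.75 in WT_DR, 6.67 in KO_AL and 38.0 in KO_DR, and the KO_DR interval ran from 0 to 83.6, so it overlapped all others. S100a9 was 2.67 to 4.83 FPKM in the 4 WAT groups, and the ratio of Lcn2 to it was 12 in KO_DR. The 10 neutrophil markers summed to 15.7, 12.1, 24.2 and 20.6 FPKM in WT_AL, WT_DR, KO_AL and KO_DR of WAT. Among them Ltf, the lactoferrin gene, which is also on the mammary epithelium list, was 0.0129, 0.0538, 14.6 and 11.1 FPKM and was called higher in KO_DR than in WT_DR. The part of these markers in the WAT values of Lcn2 was not tested.

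Orm1 moved little. Liver had 287 FPKM in WT_AL (125 to 450), 366 in WT_DR (157 to 576), 528.5 in KO_AL (414 to 643) and 385 in KO_DR (201 to 570), with a log2 difference of 0.88 ± 0.44 between KO_AL and WT_AL. The 4 WAT groups had 129, 85.0, 138 and 137 FPKM, and the 2 groups labelled KO there differed by -0.01 ± 0.33 on the log2 scale. In muscle the order was 5.87 in WT_AL, 7.68 in WT_DR, 7.21 in KO_AL and 16.5 in KO_DR, with overlapping intervals. Brain had Orm1 listed at 0 in 3 of the 4 groups.

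The serum amyloid genes encode small apolipoproteins of high density lipoprotein. Saa1 and Saa2 are the forms made chiefly in liver. There Saa1 was 107 FPKM in WT_AL (33.0 to 181), 110.3 in WT_DR (50.9 to 169.6), 137.5 in KO_AL (62.8 to 212) and 80.2 in KO_DR (41.1 to 119). Saa2 in liver was 39.0 in WT_AL (11.8 to 66.3), 49.6 in WT_DR (24.5 to 74.8), 47.7 in KO_AL (19.3 to 76.1) and 20.3 in KO_DR (8.55 to 32.0). KO_DR was the lowest liver group of both genes, with log2 differences from KO_AL of -0.78 ± 0.53 for Saa1 and -1.24 ± 0.60 for Saa2. All intervals overlapped.

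Outside the liver, WT_DR held the highest Saa1 and Saa2 values in each tissue. Saa1 in muscle was 8.79 FPKM in WT_DR (1.51 to 16.1), 0.0799 in WT_AL (0 to 0.441) and 0.382 in KO_AL (0 to 1.34), and it was listed at 0 in KO_DR. Saa2 in muscle was 3.98 in WT_DR (0 to 8.47) and 0.237 in WT_AL, and it was listed at 0 in both groups labelled KO. The log2 difference between WT_DR and WT_AL was 6.78 ± 3.32 for Saa1 and 4.07 ± 2.05 for Saa2, and both values are on a base of less than 1 FPKM. In brain, Saa1 was 1.99 in WT_DR and at most 0.455 in the others, and Saa2 was 1.92 and at most 0.101. In WAT, Saa1 was 3.01 in WT_DR and at most 0.631 in the others, and Saa2 was 1.83 and at most 0.258. The hepatocyte markers, by their median, were also highest in WT_DR of muscle (94.7 FPKM) and brain (1.41) but not of WAT (20.5, against 43.1 in KO_AL). The ratio of Saa1 to Saa2 was 2.22 to 3.96 in the liver groups and 2.21 in WT_DR muscle.

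Saa3 is the form made in fat cells and macrophages. In WAT it was 33.9 FPKM in WT_AL (16.9 to 50.9), 8.18 in WT_DR (0 to 19.2), 34.5 in KO_AL (15.9 to 53.2) and 29.4 in KO_DR (8.22 to 50.6). WT_DR was the low group, 4.14-fold below WT_AL with a log2 difference of -2.05 ± 1.04, and the group labelled KO_AL was at the WT_AL level, at 0.03 ± 0.53. In liver Saa3 was 21.8, 25.9, 36.6 and 18.8 FPKM in WT_AL, WT_DR, KO_AL and KO_DR. It was at most 2.64 in muscle and 0.254 in brain.

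**Figure D4:**
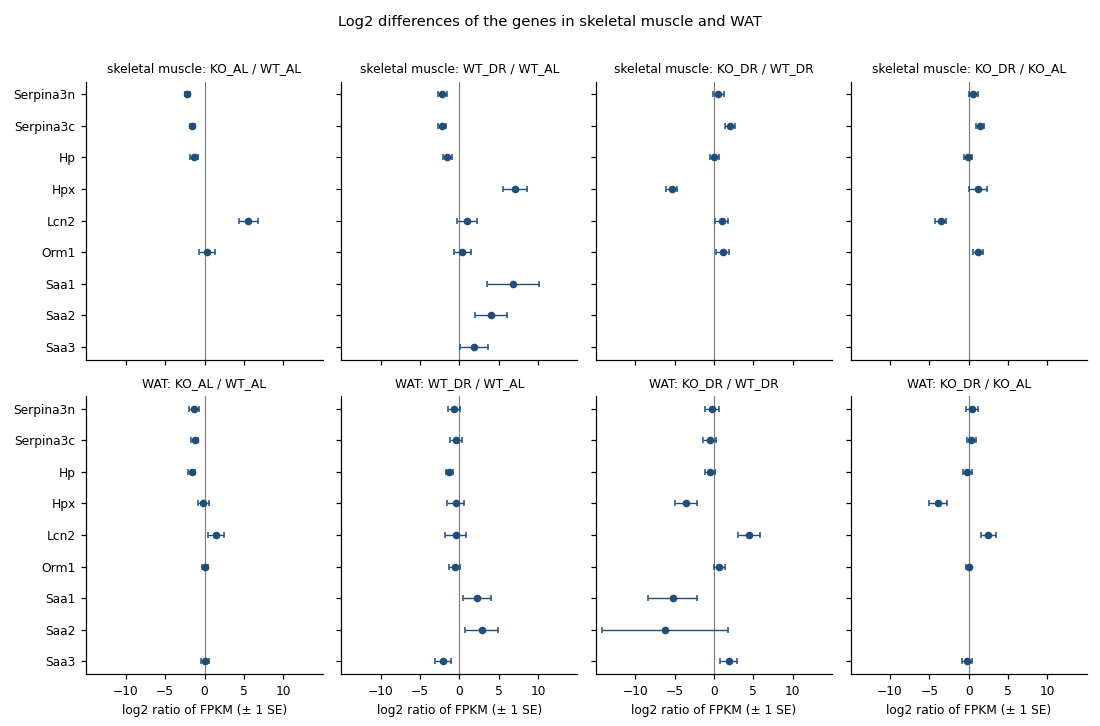
Points give the log2 ratio of FPKM of each gene between the groups in the panel title, with 1 SE either side, in skeletal muscle (top) and WAT (bottom); genes listed at 0 in a group, or under 1 FPKM in both, have no point. The Serpina3 genes and Hp lie left of 0 in both panels against WT_AL in muscle, Hpx is at 7.09 in WT_DR against WT_AL, and Lcn2 is at 5.58 in KO_AL against WT_AL.

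The whole table was tested with a Wald test whose errors came from the authors' intervals, with Benjamini-Hochberg adjustment over all entries of a tissue and comparison. It uses a normal approximation with 2 or 3 libraries per group, so calls at an adjusted p under 0.10 are given as counts, and no p is printed for a single gene. The counts of the 9 genes called stand beside the share of all entries, and nothing is read from them, since the genes were chosen on these values. In muscle, KO_AL against WT_AL called 3 of the 5 members that could be tested, Serpina3n and Serpina3c lower and Lcn2 higher, where 0.681% of 14102 entries were called. WT_DR against WT_AL called 3 of 9, Serpina3n and Serpina3c lower and Hpx higher, where 1.4% of entries were called. KO_DR against WT_DR called Serpina3c higher and Hpx lower, 2 of 6, where 2.23% were called. KO_DR against KO_AL called Lcn2 lower, 1 of 6, where 0.5% were called. With the smaller errors, SDs divided by the square root of n, the 4 comparisons called 4, 6, 2 and 3 members, where 3.64%, 6.37%, 10.7% and 2.69% of entries were called.

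In WAT, KO_AL against WT_AL called Hp lower, 1 of 7, where 1.29% of entries were called, and KO_DR against KO_AL called Hpx lower, 1 of 7, where 0.707% were called. Neither WT_DR against WT_AL (0.57% of entries called) nor KO_DR against WT_DR (0.283%) called a member of the 9 tested in WAT by this Wald test, with 2 members at an unadjusted p under 0.05 in each. With the smaller errors 3, 1, 2 and 2 members were called in KO_AL against WT_AL, WT_DR against WT_AL, KO_DR against WT_DR and KO_DR against KO_AL, where 5.94%, 2.75%, 1.13% and 7.39% of entries were called. Liver called 0 of 9 in each of its 4 comparisons, where 0.316%, 0.236%, 0.288% and 0.611% of entries were called in the same order, with 0 to 2 members at an unadjusted p under 0.05. The smaller errors called 1, 0, 1 and 3 members of 9 there, where 1.54%, 2.86%, 2.64% and 4.8% of entries were called. Brain called 0 of the 1 to 5 members tested, where 0.203%, 0.224%, 1.16% and 0.365% of entries were called, with 0 or 1 member at an unadjusted p under 0.05. The smaller errors called 0, 1, 2 and 0 members in brain, where 1.41%, 1.73%, 18.5% and 4.33% of entries were called. Summed over the 16 comparisons 11 differences were called, and with a t distribution in place of the normal 0 were called and 13 had an unadjusted p under 0.05. All comparisons of a tissue share groups, so they are not independent of each other. The difference between the genotype effects under DR and AL called Serpina3c, 1 of 6 tested in muscle, where 0.371% of entries were called. In liver, brain and WAT it called 0 of 9, 0 of 3 and 0 of 9 by the Wald test, where 0.086%, 0.396% and 0.121% of entries were called, with 0, 1 and 1 members at an unadjusted p under 0.05. The smaller errors called 0, 5, 1 and 1 members in liver, muscle, brain and WAT, where 0.803%, 2.77%, 5.15% and 1.2% of entries were called.

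In liver, where all 9 genes could be tested, all 9 were higher in KO_AL than in WT_AL, with a median log2 difference of 0.55 against 0.17 over all entries, and 8 of 9 were lower in KO_DR than in KO_AL, with a median of -0.46 against -0.03. The other positive acute phase genes, a list that includes fibrinogen, metallothionein and complement genes, had 21 of 23 tested higher and 2 lower in KO_AL than in WT_AL, with a median of 0.86, and 3 higher and 20 lower in KO_DR than in KO_AL, with a median of -0.44. None of these 23 genes was called in either comparison by the Wald test, 4 and 2 had an unadjusted p under 0.05, and 4 and 2 were called with the smaller errors. Of 8 negative acute phase genes, those that fall in inflammation, 7 were higher in KO_AL than in WT_AL, with a median of 0.88, and 0 were called, had an unadjusted p under 0.05 or were called with the smaller errors. Positive and negative acute phase genes thus lay on the same side of 0 in that comparison. In KO_DR against KO_AL they lay on opposite sides, since all 8 negative acute phase genes were higher in KO_DR, with a median of 0.23, and of these 0 were called by the Wald test, 1 had an unadjusted p under 0.05 and 1 was called with the smaller errors. The 12 hepatocyte markers were also all higher in KO_AL than in WT_AL, with a median of 0.91, and in KO_DR against KO_AL 8 were higher and 4 lower, with a median of 0.08. Of these 12, 0 were called, had an unadjusted p under 0.05 or were called with the smaller errors in either comparison by the Wald test, and their part in the liver values was not tested.

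The liver genes outside the 9 that passed the test were few. Of the list genes tested, 0%, 1.27%, 1.27% and 1.25% were called in KO_AL against WT_AL, WT_DR against WT_AL, KO_DR against WT_DR and KO_DR against KO_AL. Of all entries, 0.316%, 0.236%, 0.288% and 0.611% were called. Zbtb16, a zinc finger gene induced by glucocorticoids, fell from 5.51 FPKM in WT_AL to 0.591 in WT_DR (log2 difference -3.22 ± 0.67) and was higher again in KO_DR at 4.20 (2.83 ± 0.63 against WT_DR). Cdkn1a, the cell cycle inhibitor p21, which glucocorticoids also induce, was lower in KO_DR than in KO_AL at 3.02 against 78.2 FPKM (-4.69 ± 0.75). Of 17 to 19 genes of acute phase signalling tested per comparison, 0 were called in the liver by this test, with 0 to 2 at an unadjusted p under 0.05 and 0 to 3 called with the smaller errors.

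Across 6 lists with 92 entries outside the 9 genes, muscle had the most calls. KO_AL against WT_AL called 6 of 60 tested (10%, where 0.681% of all entries were called), all higher, among them Mt1, a metallothionein (79.6 against 16.5 FPKM, 2.27 ± 0.45), Cdkn1a (1.70 ± 0.37) and the globin genes Hba-a2 (4.26 ± 1.02), Hba-a1 (4.09 ± 1.20) and Hbb-bt (3.09 ± 0.65). Globin copies share reads, so their split is uncertain. Beside the Lcn2 value of that group, all 8 neutrophil markers tested were higher and 4 were called, with Ngp at 8.35 ± 1.90, S100a8 at 7.72 ± 1.82 and S100a9 at 6.86 ± 1.24. In KO_DR against KO_AL, 0 of 61 list genes and 4 of 9 neutrophil markers were called, all lower, with 4 list genes at an unadjusted p under 0.05 and 6 called with the smaller errors. There 0.5% of all entries were called.

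WT_DR against WT_AL in muscle called 19 of 70 list genes (27.1%, where 1.4% of all entries were called), 15 higher and 4 lower. The 15 genes called higher are secreted by hepatocytes. Of 18 other positive acute phase genes tested, 11 were higher and 7 lower. Among them 4 were called higher, Fgg at 7.70 ± 2.15 and Fga at 7.41 ± 1.39, both fibrinogen chains, Hamp, the iron hormone hepcidin, at 6.80 ± 1.11, and Fgb. All 8 negative acute phase genes were higher and 7 were called, with Alb at 7.48 ± 0.82 and Apoa1 at 7.48 ± 0.90. Of 8 clade A serpins 7 were higher and 4 were called higher, with Serpina1c at 7.86 ± 1.64 and Serpina1a at 7.82 ± 1.35, alpha-1-antitrypsin copies that share reads. The genes called higher thus came from both the positive and the negative acute phase lists there.

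Among the genes called lower in WT_DR muscle were Cebpd and Cebpa, which encode C/EBP factors (-2.61 ± 0.48 and -1.16 ± 0.27), and Fkbp5, a glucocorticoid target (-1.95 ± 0.60). Cebpd was 156 FPKM in WT_AL, 25.5 in WT_DR, 157 in KO_AL and 109 in KO_DR. KO_DR against WT_DR called 23 of 72 (31.9%, where 2.23% of all entries were called), 7 higher and 16 lower, and the lower ones again were of hepatocyte type, with Serpina1e at -5.75 ± 0.96 and Fga at -5.71 ± 0.82. Cebpd (2.10 ± 0.45), Cebpa (1.50 ± 0.24), Cdkn1a (1.62 ± 0.33) and Fkbp5 (1.15 ± 0.33) were higher in KO_DR, as was Serpina3c among the 9 genes. Of 10 adipocyte markers 6 were called higher there too, with Plin1, which coats lipid droplets, at 2.98 ± 0.57.

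WAT had few calls on the lists. Serpina1e rose in KO_AL against WT_AL (88.7 against 4.63 FPKM, 4.26 ± 0.74) and was the only one of 76 list genes called there. That is 1.32% of the list genes tested, close to the 1.29% of all entries called. Mt2, a metallothionein that acute phase signals and glucocorticoids induce, fell from 431 FPKM in WT_AL to 25.3 in WT_DR (-4.09 ± 0.86), 1 of 76, and Fkbp5 was higher in KO_DR than in WT_DR (2.76 ± 0.46), 1 of 72. The Mt2 and Fkbp5 calls are 1.32% and 1.39% of the list genes tested, where 0.57% and 0.283% of all entries were called. All 9 glucocorticoid response genes were lower in WT_DR than in WT_AL, with a median of -1.41 against -0.17 over all entries, though 0 of them were called by the Wald test, 4 had an unadjusted p under 0.05 and 2 were called with the smaller errors. KO_DR against KO_AL called 4 of 75 (5.33%, where 0.707% of all entries were called), all lower beside Hpx: Gc, the vitamin D binding protein (-4.90 ± 1.24), Fgb (-3.83 ± 1.08), Apoa2 (-3.29 ± 0.88) and Serpina1a (-3.27 ± 0.89), all made by hepatocytes.

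The WAT groups also differed in markers of other tissues. In KO_AL against WT_AL, where 1.29% of all entries were called, 8 of 10 skeletal muscle markers and 5 of the 5 mammary epithelium markers tested were called higher, with Myh4, a fast myosin, at 55.0 against 0.0699 FPKM and Krt18, a keratin of simple epithelia, at 35.3 against 2.54. In WT_DR against WT_AL, where 0.57% of all entries were called, 9 of the 10 muscle markers were higher and 4 were called, with Ckm, the muscle creatine kinase, at 114 FPKM (log2 difference 5.70 ± 0.89) and Myh4 at 20.6. The median of the muscle markers was 1.56, 31.0, 73.7 and 40.9 FPKM in WT_AL, WT_DR, KO_AL and KO_DR. Their sum was 528, 414, 1160 and 702 FPKM, of which Acta1, skeletal actin, made 507 in WT_AL. The mammary epithelium markers summed to 17.3, 25.9, 141.7 and 109.8 in WT_AL, WT_DR, KO_AL and KO_DR. Their part in the WAT values of Hp, Lcn2 and the Serpina3 genes was not tested.

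In brain, 5 of 54 list genes were called in KO_DR against WT_DR and 0 of 48 to 54 in each other comparison by the Wald test, with 3 at an unadjusted p under 0.05 in each of those and 3 to 4 called with the smaller errors. The 5 are 9.26%, where 1.16% of all entries were called. In the other comparisons 0.203% to 0.365% of all entries were called. Alb was lower in KO_DR (0.309 against 5.22 FPKM, -4.08 ± 0.93), as Hpx, Saa1 and Saa2 were by value, and Cdkn1a and the globin genes Hba-a1, Hba-a2 and Hbb-bt were higher. Hpx in brain was 1.51 FPKM in WT_DR, 0.708 in WT_AL, 0.145 in KO_AL and 0.122 in KO_DR, and the WT_DR interval of 0.526 to 2.50 lay clear of both groups labelled KO. Apart from Serpina3n, at 8.66 to 18.8 FPKM, the remaining members were near 0 in brain, with Hp at 0.364 to 1.13, Lcn2 at 0.326 to 0.815 and Serpina3c at most 0.156 FPKM.

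Across the 16 groups, with the mean of each tissue removed from log2(FPKM + 0.1), Saa1 and Saa2 had a Pearson r of 0.906, Hpx correlated with Saa1 at 0.851 and with Saa2 at 0.785, and Serpina3n correlated with Serpina3c at 0.833 and with Hp at 0.762. Lcn2 and Orm1 correlated with none of the other 8 above 0.284. These are descriptions over 16 pooled values, 4 per tissue, each from its own libraries. The entries whose pattern was nearest to each gene were Fgb (0.986), Serpina1b (0.986) and Cyp4a14 (0.978) for Hpx, and Saa2, Fga (0.884) and Cyp3a25 (0.872) for Saa1. For Serpina3c they were Smoc1 (0.931), Psat1 (0.897) and Mmp28 (0.887), and for Serpina3n Cxx1c (0.92), Smoc1 (0.853) and a gene model named after a clone (0.847), so that Smoc1 was near both Serpina3 genes. For Hp they were Tmem59 (0.869), H2-Aa (0.855) and Ptpn9 (0.849), and for Lcn2 Shq1 (0.864), Ncam1 (0.856) and Gm25313 (0.85). Saa2 had Saa1, Hrsp12 (0.874) and Smlr1 (0.851), Saa3 had Fgf21 (0.854), Lpin2 (0.849) and Colec11 (0.847), and Orm1 had Gm12785 (0.84), Alg13 (0.834) and Plekhf2 (0.828).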

How the data were processed

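Poly-A RNA of 43 libraries was sequenced as single reads on an Ion Proton System. Per the submitters' notes and the study's methods, the authors trimmed reads with cutadapt 1.5 and sickle, aligned them to GRCm38 with BBmap and estimated expression with Cuffdiff 2.2.1, normalised by the geometric mean across samples. The deposited values are FPKM per gene and group, with a 95% interval. Counts and depth per library were not used here, so precision is known only through those intervals.

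Log2 ratios of FPKM were computed without a pseudocount. SDs were taken as (upper bound − FPKM)/2, and 2 groups of a tissue were compared by a two-sided Wald test over the entries above 0 in both and at 1 FPKM or more in one, with Benjamini-Hochberg adjustment and calls at an FDR of 10%. It was tested on simulated data first. Whether the intervals describe the spread between mice or the error of the mean is not given in the sources used here, so the smaller error, SD divided by the square root of n, was run as an alternative. Other alternatives were an FDR of 5%, a t distribution, pseudocounts, other minima, median centring, joined entries left out, intervals that do not overlap, and the WT_DR muscle group left out. The genes, the lists and the tests were chosen with earlier results of these data known. Some list genes are not tested singly because 873 entries join overlapping genes, among them Cfb, Trf, Serpina3k, Serpina3m, Serpina9, Serpina11 and Ftl1. Named list genes are those called with the largest differences, up to 3 per list and comparison, the highest markers, and the 3 entries nearest to each gene in pattern; others named were chosen after their values were seen. 1 list gene that was called is not reported here. Python 3.11.15, pandas 2.3.3, scipy 1.17.1 and matplotlib 3.10.9 were used.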

Additional observations from a re-analysis of the deposited data

Results flagged for a closer look

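In skeletal muscle the genotype difference was set against itself under the 2 diets, as the log2 difference between KO_DR and WT_DR less that between KO_AL and WT_AL, with the interaction tested across all entries by a Wald test with Benjamini-Hochberg adjustment at an FDR of 10%. Of the 9 genes 6 could be tested, and Serpina3c was called, at 3.62 ± 0.74 (SE): it was lower in KO_AL than in WT_AL and higher in KO_DR than in WT_DR. Serpina3n had the same signs, at 2.75 ± 0.78, while Lcn2 was at -4.6 ± 1.4 and Hpx at -5.9 ± 2.0, and these were not called. Of the 6 genes, 4 had an unadjusted p under 0.05 by this Wald test. With SDs divided by the square root of n 5 were called, where 2.77% of all entries were called. These values are a description, since the 9 genes were chosen on these samples. In muscle 0.371% of all entries tested were called by the main test.

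On the lists of related genes, 6 of 69 tested in muscle were called by the same interaction test. Fga differed by -7.26 ± 1.69, Serpina1a by -7.01 ± 1.62, Alb by -6.71 ± 1.04, Apoa1 by -5.66 ± 1.19 and Apoa2 by -4.87 ± 1.25. These 5 genes are made by hepatocytes, and their WT_DR muscle values were the highest of the 4 groups. Cebpa, which encodes a C/EBP factor, went the other way, by 2.15 ± 0.40, from 12.3 FPKM in WT_DR to 34.8 in KO_DR.

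Liver, brain and WAT had 0 such calls among the 9 genes and 0 among the 81, 54 and 77 list genes tested by this Wald test. Of all entries, 0.086%, 0.396% and 0.121% were called there. At an unadjusted p under 0.05 by this test were 0 to 1 of the 9 genes and 5 to 11 list genes. When SDs were divided by the square root of n, 0 to 1 of the 9 genes and 5 to 10 list genes were called, where 0.803%, 5.15% and 1.2% of all entries were called.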

How the results depend on the processing

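The main setting called 11 differences of the 9 genes over 16 comparisons. The total was 9 to 15 under an FDR of 5%, pseudocounts of 0.1 and 1, other minimum FPKM, median centring, joined entries left out and intervals that do not overlap. These settings kept 9 to 11 of the 11, and the higher totals include added calls. With a t distribution 0 were called, because 3 or fewer libraries per group leave few degrees of freedom. With SDs divided by the square root of n there were 31, the 11 among them, and with the WT_DR muscle group left out 6. The difference of Serpina3c between KO_DR and WT_DR in muscle was lost without a minimum FPKM, at an FDR of 5% and with centring, and that of Hpx between KO_DR and KO_AL in WAT at an FDR of 5%. The list genes had 63 calls over the 16 comparisons, a gene counting once in each comparison that called it. The same settings gave 0, 203 and 21 such calls, and all others 56 to 75. The interaction calls went from 7 to 47 with SDs divided by the square root of n. A pseudocount of 1 moved 4 differences of low genes by more than 1 SE, and no called difference changed sign. No paired analysis was possible because the table holds 1 pooled value per group and no value per library, and replicates could not be left out for the same reason. Genes near 0 FPKM are limited by depth that is unknown here.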
